A study of Mus musculus with 2 samples.

Results

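The module described here holds 36 genes of 32285 in the count tables: chaperones of the endoplasmic reticulum (ER) and genes of the unfolded protein response. Members were taken by symbol from a list that names Hspa5, the proposed target of homoharringtonine (HHT), and its partners, and each of the 36 symbols matched 1 gene. By role they are 9 chaperones of the Hspa5 cycle, 2 lectin chaperones, 5 enzymes of disulfide formation, 9 genes of ER-associated degradation, 7 sensors and transcription factors, 2 regulatory subunits of the eIF2alpha phosphatase, and 2 genes of the translocon and of ER calcium handling. Proteins that enter the secretory pathway are folded in the ER by Hspa5, also called BiP or GRP78, a chaperone of the Hsp70 family that binds exposed hydrophobic stretches and lets go of them when it exchanges its nucleotide. When unfolded proteins build up, Hspa5 leaves the sensors Ern1 (IRE1alpha), Eif2ak3 (PERK) and Atf6. Ern1 then splices the mRNA of Xbp1, Eif2ak3 slows translation by phosphorylating eIF2alpha, and Atf6 is cut in the Golgi by Mbtps1 to free a transcription factor, so that genes of chaperones and of degradation are transcribed. In white adipose tissue (WAT) this pathway is known for its response to obesity, and secretory cells, plasma cells above all, depend on it.

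Nuclei of frozen epididymal WAT, the visceral depot beside the testis, were sequenced in 2 libraries, HF-PBS and HF-HHT. Both groups were male C57BL/6N mice, 8 weeks old at the start, kept on HF (a high-fat diet) throughout: 6 weeks without treatment, followed by 8 weeks in which they received 3 intraperitoneal injections per week, of HHT or, for HF-PBS, of PBS. HHT, a plant alkaloid used against leukemia, binds the ribosome and blocks the elongation of new proteins, and it was dissolved in DMSO and diluted in PBS. Each library held the pooled tissue of 3 mice, so animals cannot be told apart, there was 1 library per condition, no test of the conditions was possible, and every ratio compares these 2 libraries.

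The HF-PBS library held 76197757 unique molecular identifiers (UMIs, counts of single RNA molecules) and the HF-HHT library 73313558, and 6650 and 6439 nuclei were kept, with median depths of 4311 and 3985 UMIs. Nuclei were grouped into classes by marker genes, without the 36 genes: 146 and 846 adipocytes (12 of 12 markers found, Adipoq and Plin1 among them), 751 and 671 adipocyte precursor cells (APCs, 9 of 9, with Pdgfra and Dcn), and 3601 and 2245 macrophages (8 and 9 of 10 in their 2 clusters, with Csf1r and Adgre1). The libraries stood apart in more than these genes: 692 duct-like epithelial and 118 multiciliated nuclei were found in HF-HHT and 0 of either in HF-PBS, and B cells numbered 739 and 45. Of the barcodes kept, 13 were shared by both libraries. A level below is in CPM, the UMIs of a gene per 1000000 UMIs of its class and library, so it is a share of the RNA counted in those nuclei, and fewer nuclei with the gene cannot be told apart from less RNA in each. A ratio is the log2 of CPM in HF-HHT over HF-PBS with the exact 95% interval of the 2 counts, which covers counting error only and leaves out variation between animals. A gene was measured in a class with at least 20 UMIs over both libraries, and called higher or lower at 1.5-fold.

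The ER stress response element, through which the cleaved form of Atf6 acts together with the factor NF-Y, reads CCAAT, then 9 bases of any kind, then CCACG. It was searched on both strands in the promoter windows of RefSeq on GRCm38.p6, from 250 bases before to 50 bases after the annotated start. Windows were found for 30 of the 36 genes, and 9 of these 30 (30%) held the element, against 37 of all 27025 genes (0.137%) and 39 of all 32851 windows (0.119%). The element was first described in promoters of Hspa5, Hsp90b1 and Calr, so its presence there is no independent result. The other genes were listed as members of the same response, so the share of 30% is not independent of that choice either. Only exact matches were counted, so a gene without the element may hold a near match. It is shown whole for the 2 genes on which the macrophage results turn, Hspa5 (chr2:34771840-34772139, plus strand) and Calr (chr8:84846882-84847181, minus strand). Both are written on the strand of the gene with the element in capitals, and in Calr it lies on the opposite strand and so reads from CCACG back to CCAAT in complement.
Hspa5: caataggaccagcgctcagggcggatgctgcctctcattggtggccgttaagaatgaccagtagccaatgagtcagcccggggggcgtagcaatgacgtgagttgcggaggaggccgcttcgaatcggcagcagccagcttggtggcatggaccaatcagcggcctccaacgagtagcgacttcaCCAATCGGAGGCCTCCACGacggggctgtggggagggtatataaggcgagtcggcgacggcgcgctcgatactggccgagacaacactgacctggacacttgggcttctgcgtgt
Calr: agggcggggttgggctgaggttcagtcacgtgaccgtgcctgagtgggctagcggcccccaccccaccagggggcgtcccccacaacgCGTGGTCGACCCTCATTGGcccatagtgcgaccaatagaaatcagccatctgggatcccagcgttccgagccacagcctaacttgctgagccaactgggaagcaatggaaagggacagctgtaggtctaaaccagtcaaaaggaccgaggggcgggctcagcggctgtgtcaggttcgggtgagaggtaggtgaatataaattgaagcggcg

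The element itself differed among the 9 genes in its 9 middle bases, as the 10 sites found show. Each is written in the direction of CCAAT to CCACG, with these fixed letters in capitals, and Hsp90b1 held 2 sites. They began between 212 and 44 bases before the annotated start, and that of Hspa5 lay 65 to 47 bases before it. These starts are those of RefSeq. The coordinates of Hspa5 given below begin further upstream, at 34771970, so by them the element lies within the gene.
Hspa5: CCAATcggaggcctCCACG
Calr: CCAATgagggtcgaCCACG
Hsp90b1, distal: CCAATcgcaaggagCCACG
Hsp90b1, proximal: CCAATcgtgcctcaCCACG
Canx: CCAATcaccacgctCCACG
Pdia6: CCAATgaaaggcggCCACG
Dnajc3: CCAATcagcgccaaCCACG
Creld2: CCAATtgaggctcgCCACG
Syvn1: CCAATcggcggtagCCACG
Derl3: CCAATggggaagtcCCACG

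Other motifs of the response were searched in the same windows. The second form of the element (ATTGG, 1 base, CCACG), which shares its last letters with the first, was found in Dnajb11 and Herpud1, 2 of 30 genes (6.67%) against 0.0444% of all genes. The site of Xbp1 (TGACGTGG, whose complement also holds CCACG) was found in 0 of 30 and in 0.714% of all genes, and the site of Atf4 (TGATG, 1 base, AA) in Herpud1 alone, 1 of 30 (3.33%) against 4.51%. A match describes the letters of a window, and these nuclei were not assayed for the binding of any factor.

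Hspa5, at chromosome 2, 34771970 to 34777547, plus strand, in the mm10 build of the counts, was found in every class, and its level differed more between classes than between the libraries. Mesothelial cells, the lining of the depot, held the highest level in both libraries, with 335 CPM in HF-PBS against 382 CPM in HF-HHT. Adipocytes held the lowest, with 51.6 CPM (95% Poisson interval 41.9 to 63.0) and 45.4 CPM (41.3 to 49.8), so that the highest class exceeded the lowest 6.49-fold in HF-PBS and 8.41-fold in HF-HHT. In HF-PBS the APCs came second at 142 CPM, and dendritic cells, macrophages, T and NK cells, B cells, endothelial cells and dividing cells followed between 88.7 and 62.3 CPM. Each of these 6 overlapped its neighbour in that order in its interval, so the order of neighbours was not resolved. The intervals of macrophages and dividing cells did not overlap. That of adipocytes overlapped those of B cells, endothelial cells and dividing cells, so the lowest class in HF-PBS was not resolved either. Among the same 9 classes in HF-HHT macrophages came second at 189 CPM, and the APCs, at 148 CPM, lay within the same range as B cells, T and NK cells, dendritic cells and dividing cells. Hsp90b1 had the same 2 classes at its ends in HF-PBS, with 248 CPM in mesothelial cells and 36.7 CPM in adipocytes, but B cells were highest in HF-HHT at 455 CPM, on 37 UMIs. Dnajb9 reached 38.3 CPM in mesothelial cells, and the next class, the APCs, had 11.8 CPM. Crebrf was ordered the other way, with adipocytes highest at 586 CPM and mesothelial cells lowest at 101 CPM. Of the 36 genes, 17 had their highest level over 9 classes in mesothelial cells in HF-PBS against 10 in HF-HHT. In HF-HHT B cells, 45 nuclei in all, were the highest class for 14 genes, against 6 in HF-PBS. Some of these 14 rested on few UMIs, with 1 for Sdf2l1, 3 for Sec61b and 4 each for Derl3 and Selenos. The highest class was not counted over all genes, so these counts have no background to be read against. The classes found in HF-HHT alone held 56.2 CPM of Hspa5 in duct-like epithelium and 212 CPM in multiciliated nuclei, and erythroid nuclei, not compared between the libraries, held 202 CPM there. Free RNA, the RNA of droplets without a nucleus, held 267 CPM in HF-PBS against 410 CPM in HF-HHT, more than every class but mesothelial cells in HF-PBS and more than every class in HF-HHT.

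**Figure D1:**
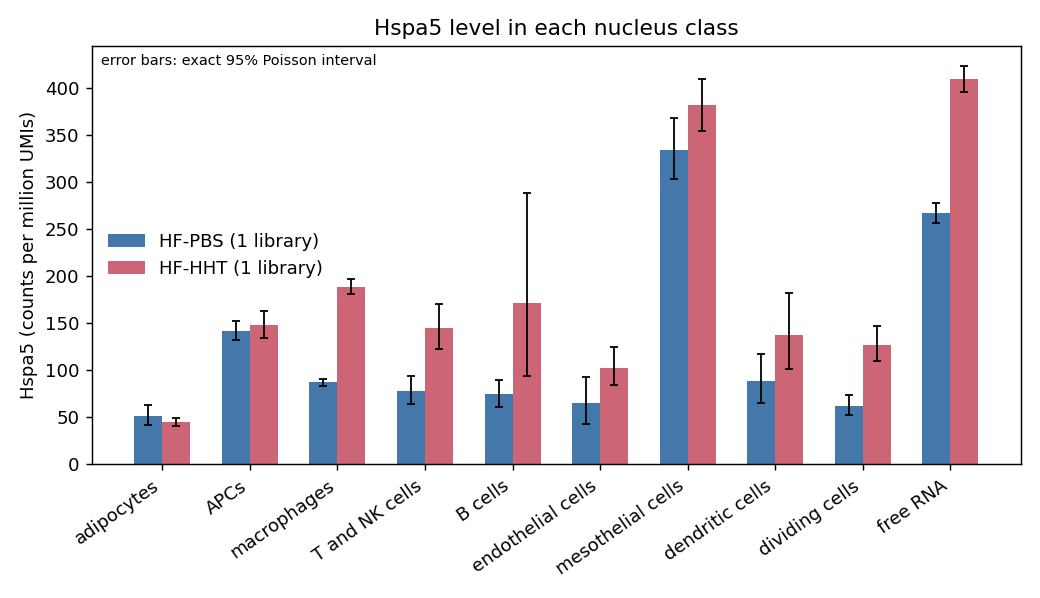
Level of Hspa5 in CPM for 9 classes of nuclei and for free RNA, with HF-PBS and HF-HHT as paired bars of 1 library each and exact 95% Poisson intervals as error bars. Macrophages stood at 87.4 and 189 CPM, adipocytes at 51.6 and 45.4 CPM, and mesothelial cells were highest among the nuclei at 335 and 382 CPM.

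In macrophages, chaperones and folding enzymes were higher in HF-HHT as a group, sensors were near their HF-PBS level, and Wfs1 was lower. Of 35 genes measured, 16 were at least 1.5-fold higher (45.7%) and 1 was lower (2.86%), where 26.0% of all 14380 measured genes were higher and 8.23% lower. The median log2 ratio of the 35 was 0.54, against 0.16 for all measured genes. Their summed level was 2395 CPM in HF-PBS against 2803 CPM in HF-HHT, a log2 ratio of 0.23 (0.21 to 0.25). Within this sum Wfs1 went from 159 to 42.8 CPM, Atf6 from 407 to 353 CPM and Crebrf from 242 to 193 CPM. Ern1, also abundant, stood at 184 and 175 CPM.

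Hspa5 itself stood at 87.4 CPM in HF-PBS (1881 UMIs) against 189 CPM in HF-HHT (2030 UMIs), a log2 ratio of 1.11 (1.02 to 1.20). Sdf2l1, an ER protein that works with the Hspa5 co-chaperones, went from 1.67 to 7.25 CPM, the highest ratio of the module at 2.12 (1.53 to 2.73), on 36 and 78 UMIs. Manf, a secreted protein that holds Hspa5 on its clients, stood at 13.7 and 29.7 CPM (1.11, 0.88 to 1.35). These 3 were each more than 2-fold higher in HF-HHT. Hsp90b1, the Hsp90 of the ER, followed with 115 and 202 CPM (0.81, 0.73 to 0.89). Hyou1, a nucleotide exchange factor of Hspa5, had 17.7 and 28.4 CPM (0.68, 0.46 to 0.91). Dnajb9, a co-chaperone that also holds Ern1 in check, had 6.41 and 10.0 CPM (0.65, 0.27 to 1.02). The other 3 genes of the Hspa5 cycle, Creld2, Dnajb11 and Dnajc3, lay between 0.38 and 0.54, below the threshold, and the summed level of the 9 went from 358 to 620 CPM.

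Among the lectin chaperones, which hold glycoproteins until they fold, Calr (chromosome 8, 84841850 to 84846934, minus strand) stood at 38.1 CPM in HF-PBS against 111 CPM in HF-HHT (1.54, 1.41 to 1.67), whereas its membrane-bound relative Canx stood at 166 and 212 CPM (0.36, 0.28 to 0.44). Of the 5 enzymes of disulfide formation, 3 were past the threshold. Pdia3, the partner of Calr and Canx, had 87.9 and 146 CPM (0.73, 0.64 to 0.83). Pdia6 had 48.0 and 83.0 CPM (0.79, 0.66 to 0.92). P4hb, the founding protein disulfide isomerase, had 31.4 and 54.6 CPM (0.80, 0.64 to 0.96). Pdia4 and Ero1l, the oxidase that recharges these isomerases, were at 0.48 and 0.56.

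Genes of ER-associated degradation, which draws misfolded proteins back to the cytosol for the proteasome, were mostly below the threshold. Of 8 measured, 1 was higher, and their median was 0.24. The exception was Selenos, a selenoprotein of the retrotranslocation complex, with 15.7 and 28.7 CPM (0.88, 0.65 to 1.10). Herpud1 was at 0.53, Syvn1 (the ubiquitin ligase HRD1) at 0.36, its partner Sel1l at 0.10, and the mannosidase-like Edem1 and Edem2 at 0.11 and -0.14. Derl3 had 7 and 1 UMIs and was not measured.

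The 3 sensors were near their HF-PBS level, whereas 2 of the 7 genes of sensors and transcription factors were past the threshold. Ern1 stood at 184 and 175 CPM (-0.07, -0.15 to 0.01), Eif2ak3 at 78.2 and 80.6 CPM (0.04, -0.07 to 0.16), and Atf6 at 407 and 353 CPM (-0.20, -0.26 to -0.15). Xbp1, the transcription factor whose mRNA Ern1 splices, had 28.1 and 42.9 CPM (0.61, 0.43 to 0.79), and counts per gene do not separate its spliced form. Atf6b, the relative of Atf6, had 8.60 and 15.3 CPM (0.83, 0.52 to 1.14). Crebrf, a regulator of the response, had 242 and 193 CPM (-0.33, -0.40 to -0.26), and Mbtps1 was at -0.02. Both subunits that lead the phosphatase to eIF2alpha and so restart translation were higher: Ppp1r15a (GADD34) with 3.76 and 6.70 CPM (0.83, 0.35 to 1.31), and Ppp1r15b with 27.9 and 48.5 CPM (0.80, 0.63 to 0.97).

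Sec61b, a subunit of the channel through which new proteins enter the ER, had 6.37 and 15.6 CPM (1.30, 0.96 to 1.63). Wfs1 (wolframin, chromosome 5, 36966104 to 36989205, minus strand), a membrane protein of the ER that takes part in its calcium balance, went the other way, from 159 CPM (3414 UMIs) to 42.8 CPM (460 UMIs), a log2 ratio of -1.89 (-2.03 to -1.75). In free RNA it stood at 141 and 21.9 CPM, a log2 ratio of -2.69 (-2.92 to -2.46).

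**Figure D2:**
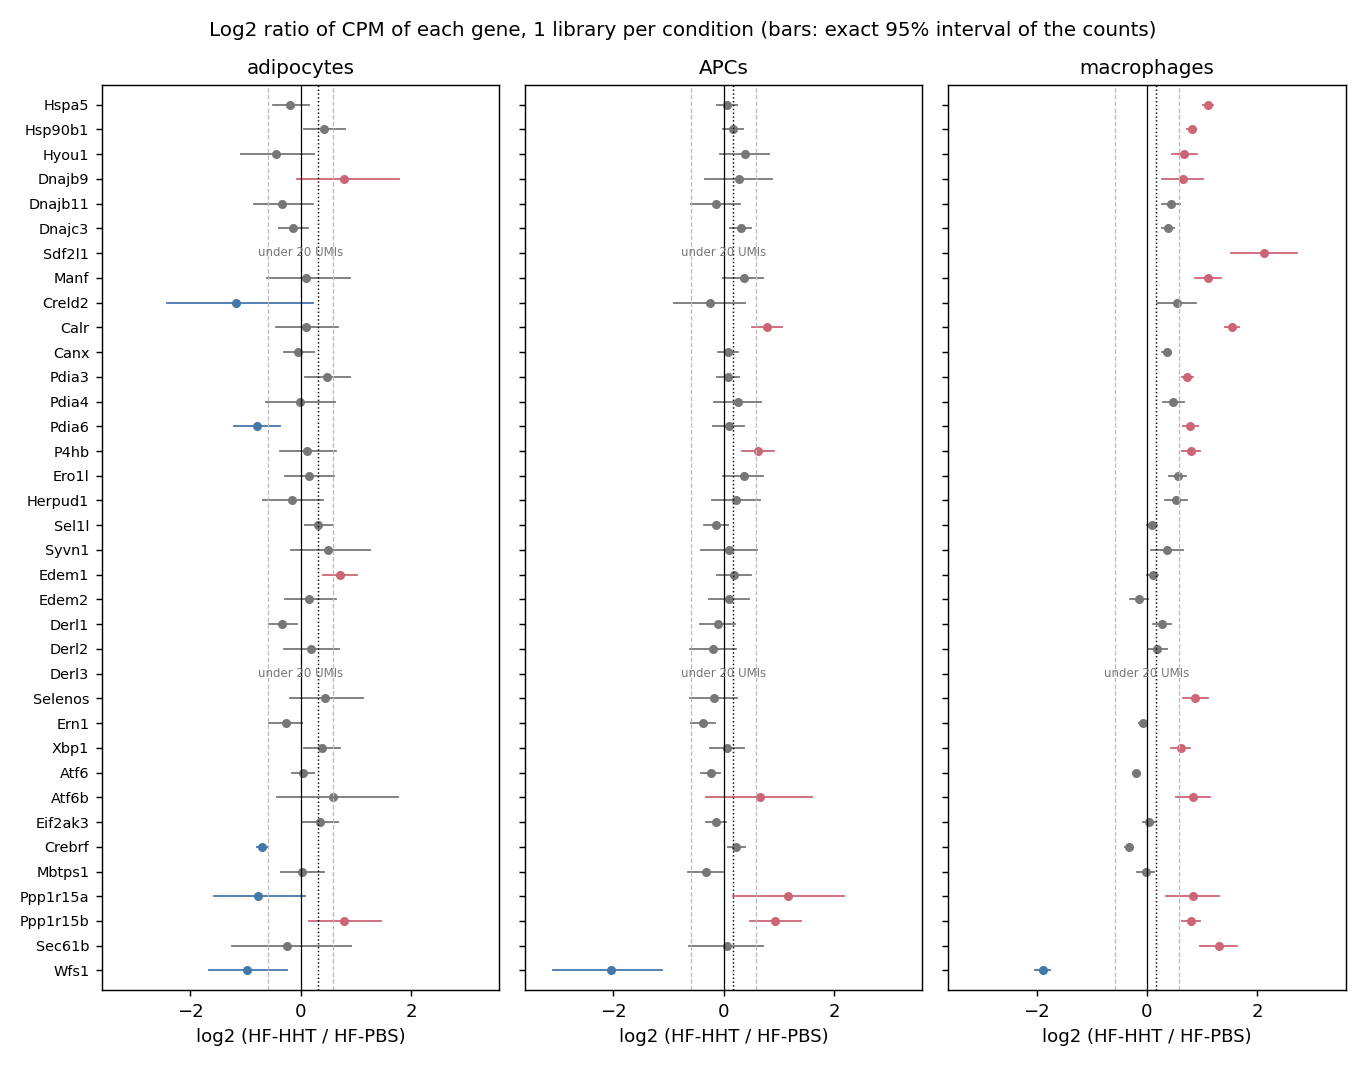
Log2 ratio of CPM in HF-HHT over HF-PBS for each of the 36 genes in adipocytes, APCs and macrophages, with exact 95% intervals of the counts as bars, dashed lines at 1.5-fold and a dotted line at the median of all measured genes. Points in red were at least 1.5-fold higher and points in blue at least 1.5-fold lower; 16 were red in macrophages, 3 in adipocytes and 5 in APCs.

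The macrophage class is a mixture whose parts differed in size between the libraries, so the ratios were taken again within each of the 5 finer clusters with at least 30 nuclei per library. Hspa5 was higher in HF-HHT in all 5, with log2 ratios from 0.60 in the cluster led by Ccr2 and Clec4e, genes of recruited monocytes, to 1.51 (1.30 to 1.73) in the cluster with Mrc1 and F13a1. The first of these held 312 nuclei in HF-PBS against 792 in HF-HHT, and in HF-PBS it already stood at 146 CPM of Hspa5, against 57.2 to 89.6 CPM in the other 4. Calr was higher in all 5, between 1.07 and 1.89, and Wfs1 was lower in all 5. Wfs1 was concentrated in the cluster with Mmp12 and Gpnmb, genes of lipid-laden macrophages, where it stood at 375 CPM in HF-PBS against 192 CPM in HF-HHT (-0.97, -1.14 to -0.80). That cluster held 785 nuclei in HF-PBS against 310 in HF-HHT. Where Mrc1 and F13a1 led, Wfs1 had 203 UMIs under PBS and 5 under HHT (36.9 and 2.06 CPM). In the clusters led by Mrc1, Dpep2, Ccr2 and Mmp12, 17 of 35, 14 of 34, 13 of 35 and 15 of 35 measured genes were higher, where 18.8% to 23.0% of all measured genes were. In the Lyve1 cluster 6 of 28 were, a smaller share than the 26.1% of all its measured genes.

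**Figure D3:**
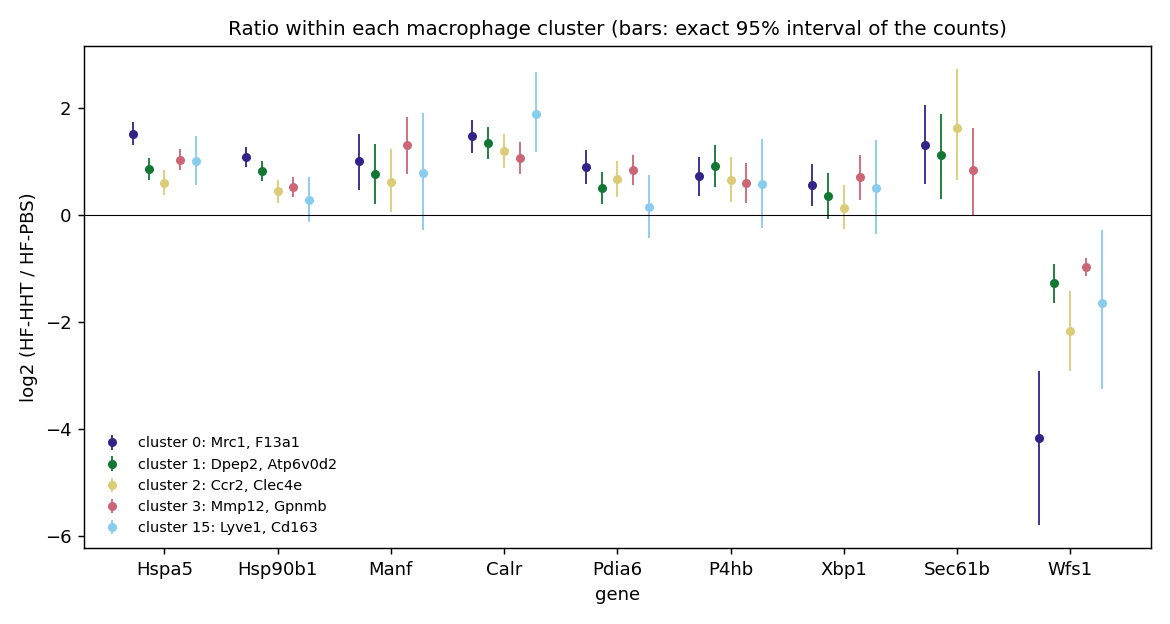
Log2 ratio of CPM in HF-HHT over HF-PBS for 9 genes within each of 5 macrophage clusters, each cluster named by 2 of its leading genes, with exact 95% intervals as bars. Hspa5 and Calr lay above 0 and Wfs1 below 0 in all 5 clusters; Sec61b was under 20 UMIs in the cluster with Lyve1 and Cd163.

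Other measures moved with these ratios in macrophages, and their part in the result was not tested. The summed level of 83 cytosolic ribosomal protein genes went from 1864 to 5065 CPM (log2 1.44), and that of 13 mitochondrial genes from 162 to 398 CPM (1.29), whereas in adipocytes the ribosomal sum went from 916 to 1183 CPM (0.37). In free RNA the ribosomal sum went from 7024 to 15683 CPM, Hspa5 had a log2 ratio of 0.62 and Calr one of 1.06. Free RNA was estimated to make up 6.29% of the macrophage counts under PBS and 6.54% under HHT, which comes to 16.8 of the 87.4 CPM of Hspa5 and 26.8 of the 189 CPM. This share was the lowest ratio, over the marker lists of other classes, of their sum in the class to their sum in free RNA. In macrophages the APC list gave it in both libraries. The sum of 6 monocyte markers went from 60.6 to 438 CPM, macrophage markers went from 7321 to 4727 CPM, and erythroid markers from 4.55 CPM, with 4 of 7 at 0, to 113 CPM.

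The span of the gene, introns included, also moved with the ratio, and its part was not tested. Of 13 members under 10 kb, 10 were higher in macrophages, and their median was 0.83. Over 3484 other measured genes under 10 kb the median was 0.48, and 43.8% were higher. From 10 to 20 kb, 4 of 6 members were higher with a median of 0.74, against 0.25 and 25.9% of other genes. Between 20 and 50 kb the members' median was 0.32 and that of other genes 0.11, and above 50 kb both lay near 0. Hspa5 spans 5.58 kb and Calr 5.08 kb, whereas Ern1 spans 93.2 kb and Atf6 163 kb. Manf was an exception, with a span of 53.7 kb that overlaps Rbm15b on the same strand, so that reads of the 2 genes may not be told apart.

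**Figure D4:**
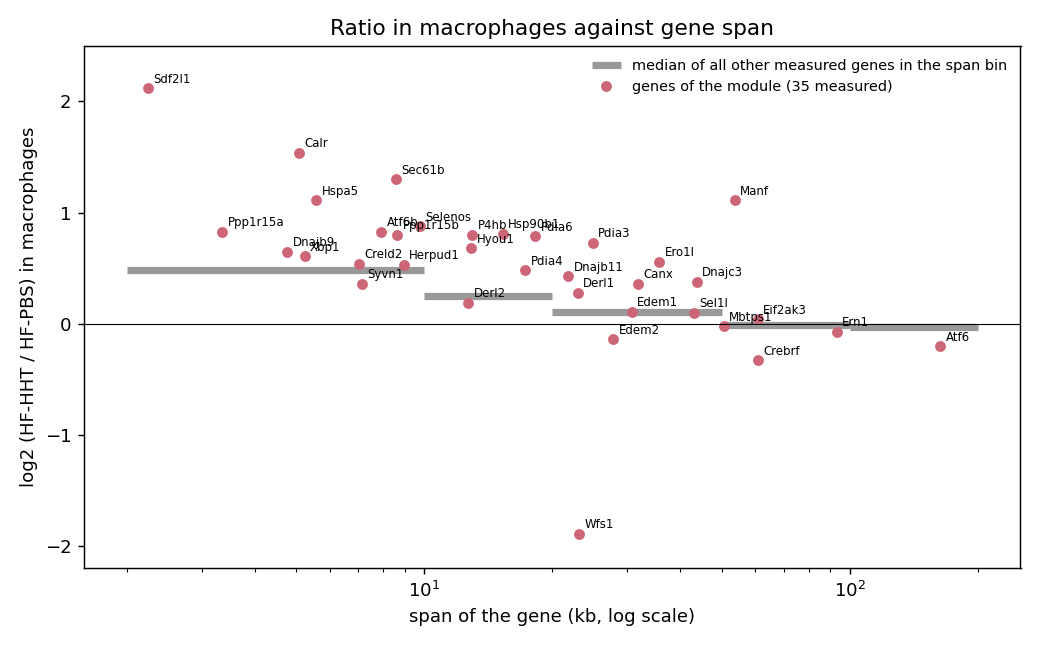
Log2 ratio of CPM in HF-HHT over HF-PBS in macrophages against the span of the gene in kb on a log axis, with 1 labelled point for each of 35 genes and grey bars for the median of all other measured genes in the same bin of span. Short genes lay higher in both sets; the members' median was 0.83 under 10 kb, where that of other genes was 0.48, and Wfs1 stood apart at -1.89.

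Per nucleus, Hspa5 was counted in a larger share of macrophages in HF-HHT at equal depth. With every nucleus thinned to 2000 UMIs, 502 of 3484 macrophages held at least 1 Hspa5 UMI in HF-PBS (14.4%, 95% binomial interval 13.3 to 15.6) and 485 of 1943 in HF-HHT (25.0%, 23.1 to 26.9). At least 2 UMIs were held by 1.84% and 6.59%. Before thinning the shares with at least 1 UMI were 31.6% and 43.3%, at median depths of 4945 and 4072 UMIs, and 117 and 302 shallower macrophages were left out. In adipocytes the thinned shares were 6.21% (2.88 to 11.5) and 8.82% (6.99 to 10.9), the lowest of the classes, and in APCs 21.3% and 21.1%. No class lacks Hspa5, so no share gives the level of free RNA alone.

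In adipocytes the CPM ratio of Hspa5 had an interval that held 0, Crebrf was lower, and no direction of the module held under every alternative. Of 34 genes measured, 3 were higher (35.3% of all 12566 measured genes were) and 5 lower (12.2% were), and the median was 0.07 against 0.32 for all genes. Hspa5 was at 51.6 CPM in HF-PBS (97 UMIs) against 45.4 CPM in HF-HHT (455 UMIs), a log2 ratio of -0.19 (-0.50 to 0.15). In CPM, this interval leaves out a 1.5-fold difference in both directions and does not overlap that of macrophages, but the difference between the classes was not tested. With every barcode of at least 500 UMIs kept, which brings in many shallow ones, the ratio of Hspa5 was -0.78. Crebrf stood at 586 and 360 CPM (-0.70, -0.80 to -0.60), its highest level in any class in both libraries. Pdia6 stood at 35.1 and 20.2 CPM (-0.79, -1.20 to -0.37). Edem1, which hands misfolded glycoproteins to degradation, stood at 53.2 and 87.3 CPM (0.71, 0.41 to 1.03). Ppp1r15b was at 12.2 and 20.9 CPM (0.78, 0.15 to 1.46), on 23 UMIs in HF-PBS. Wfs1 had 24 and 65 UMIs, or 12.8 and 6.48 CPM (-0.98, -1.67 to -0.24), of which free RNA was estimated to bring 6.92 and 0.738 CPM. Macrophage markers in the adipocyte class had a sum of 252 CPM in HF-PBS against 52.9 CPM in HF-HHT, and their part in these ratios was not tested. The other 26 measured genes lay between -0.44 (Hyou1) and 0.58 (Atf6b), Calr at 0.09 among them. Dnajb9, Creld2 and Ppp1r15a were also past 1.5-fold, with 8 to 18 UMIs in HF-PBS and intervals that held 0. Sdf2l1 (0 and 5 UMIs, where the floor of 3 counts set for 0 comes to 1.60 CPM) and Derl3 (0 and 0) were not measured. With TMM scaling, which sets most genes near no difference and lowered log2 ratios here by 0.27, 0 genes were higher and 8 lower. Hspa5 was then at -0.46, and at -0.49 with a second scaling, by median-of-ratios factors. The interval of Hspa5 shifts with its ratio and then no longer leaves out a 1.5-fold lower level. Without upper limits on the UMIs and genes of a nucleus the class held 291 and 1175 nuclei (7067254 and 21239373 UMIs). With the limits it held 146 and 846 (1879351 and 10025844 UMIs), so a larger share of the HF-PBS adipocytes was left out. Without them 6 genes were higher and 3 lower, and Hspa5 was at 0.10. In the larger adipocyte cluster alone 7 were higher and 4 lower.

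In APCs, Hspa5 stood at 142 CPM in HF-PBS against 148 CPM in HF-HHT (0.06, -0.12 to 0.24), and 5 of 34 genes were higher and 1 lower. Of all 12192 measured genes 23.1% were higher and 7.73% lower, and the members' median was 0.09 against 0.17. Calr had 48.4 and 83.7 CPM (0.79, 0.52 to 1.05). P4hb had 42.9 and 65.8 CPM (0.62, 0.33 to 0.91). Both subunits of the eIF2alpha phosphatase were higher, Ppp1r15b with 15.3 and 29.3 CPM (0.93, 0.47 to 1.40) and Ppp1r15a with 3.34 and 7.51 CPM on 17 and 21 UMIs (1.17, 0.17 to 2.18). Atf6b passed the threshold on 22 and 19 UMIs with an interval that held 0. Wfs1 went from 16.1 to 3.93 CPM (-2.04, -3.09 to -1.12), and free RNA was estimated to bring 10.3 and 2.67 CPM of these. Of Calr it was estimated to bring 8.61 and 29.9 CPM and of P4hb 6.17 and 16.2 CPM, and with these subtracted neither gene passed 1.5-fold, Atf6b did not either, and 2 genes stayed higher, the phosphatase subunits. Free RNA took an estimated 7.30% of the APC counts under PBS, from macrophage markers, and 12.2% under HHT, from adipocyte markers. The subtraction thus rests on unlike lists in the libraries, and what one list for both would leave was not tested. The ribosomal sum in APCs went from 2150 to 3386 CPM. Ern1 (-0.38), Atf6 (-0.24) and Mbtps1 (-0.33) lay below 0 with intervals that left it out, and the 28 measured genes below the threshold reached from there to 0.38 (Hyou1). Sdf2l1 and Derl3 were under 20 UMIs.

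Within the finer clusters of these 2 classes, the intervals of Hspa5 all held 0, and in 3 of the 5, those with Adrb3, Pi16 and C7, they were too wide to leave out a 1.5-fold difference. The adipocyte cluster with Adrb3 and Nrg4 held 32 nuclei under PBS and 300 under HHT, and 10 of its 31 measured genes were lower, where 18.3% of all measured genes were. In the larger adipocyte cluster 4 of 34 were lower, against 11.7%. Crebrf had nearly the same ratio in both, -0.74 (-0.95 to -0.51) and -0.73 (-0.84 to -0.61). Ern1 stood at 108 and 52.9 CPM in the Adrb3 cluster (-1.03, -1.58 to -0.44) and at 53.4 and 50.8 CPM in the larger one (-0.07, -0.42 to 0.29). Of the APC clusters, the largest, led by Fgf7 and Col8a1, had Calr at 0.76 (0.44 to 1.08), P4hb at 0.69 and Ppp1r15b at 1.06, and that with Pi16, a gene of early progenitors, had Calr at 0.98 (0.38 to 1.60). The cluster with C7 and Gpc3, of 32 and 114 nuclei, had 0 of 19 measured genes higher and 8 lower, where 23.7% and 13.8% of all measured genes were, and its interval for Hspa5 ran from -0.91 to 0.32.

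Summed by role, the chaperones of the Hspa5 cycle had an interval above 0 in 7 of the 8 classes other than macrophages, and the sensors and transcription factors in none. Over all measured genes the median log2 ratio was itself above 0 in every class compared, from 0.07 (dendritic cells) to 0.32 (adipocytes). In APCs the sum of the Hspa5 cycle was at 0.17 (0.08 to 0.26), the same as that median. The summed level of the Hspa5 cycle went from 431 to 617 CPM in T and NK cells (0.52, 0.35 to 0.68) and from 296 to 459 CPM in dividing cells (0.63, 0.47 to 0.79). In mesothelial cells it was the highest of the 9 classes in both libraries, at 1017 and 1181 CPM (0.22, 0.12 to 0.32), and in adipocytes it was 226 and 221 CPM (-0.03, -0.18 to 0.12). The sum of the 7 sensors and transcription factors had an interval below 0 in adipocytes (921 and 720 CPM), APCs (694 and 651), macrophages (994 and 905), T and NK cells (998 and 906), B cells (1719 and 1254), mesothelial cells (801 and 607) and dividing cells (891 and 761). It held 0 in dendritic and endothelial cells. Single genes weighed heavily in these sums. In adipocytes Crebrf alone went from 586 to 360 CPM, and the median log2 ratio of the 7 genes was 0.05. In mesothelial cells Ern1, given below, held most of the difference.

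Outside these 3 classes, the ratio of Hspa5 was above 0 in 6 of 6 classes. In free RNA Hspa5 also had a ratio above 0, with 267 and 410 CPM (0.62). The share of free RNA was not estimated for these 6 classes, and its part was not tested. Other genes named here as highest or lowest are so among those with at least 50 UMIs. The summed ribosomal protein genes moved in the same direction, with log2 ratios of 1.28 in dividing cells, 1.16 in B cells, 0.84 in T and NK cells, 0.75 in dendritic, 0.62 in mesothelial and 0.46 in endothelial cells, and their part in these results was not tested. Mitochondrial genes were at 1.42 in dividing and 1.12 in mesothelial cells, and between -0.11 and 0.83 in the other 4. In T and NK cells 12 of 33 measured genes were higher (21.1% of all genes) and 2 lower (7.85%). Hspa5 there stood at 78.0 and 145 CPM (0.90, 0.53 to 1.27), Calr at 35.1 and 85.9 CPM (1.29) and Selenos at 16.5 and 30.6 CPM (0.90), and Wfs1 (-1.93), Crebrf (-0.65) and Mbtps1 (-0.29) were lowest. In dividing cells, 12 of 33 were higher (19.2%) and 1 lower (9.87%), with Ppp1r15b at 1.53, Hspa5 at 62.3 and 127 CPM (1.03, 0.70 to 1.36) and Calr at 0.98, and with Wfs1 (-1.69), Ern1 (-0.41) and Atf6 (-0.34) at the low end. In dendritic cells 7 of 26 were higher (20.1%) and 2 lower (13.8%), and Hspa5 stood at 88.7 and 138 CPM (0.64, 0.03 to 1.24), beside Eif2ak3 (0.77) and Hsp90b1 (0.76) as the highest and Ern1 (-0.41), Crebrf (-0.15) and Atf6 (-0.11) as the lowest.

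The B cells of HF-HHT were 45 nuclei, and the intervals there were wide. In them 14 of 31 measured genes were higher (30.8% of all genes) and 5 lower (20%), Hspa5 went from 74.6 CPM (105 UMIs) to 172 CPM (14 UMIs) (1.21, 0.29 to 2.02), Xbp1 (1.76), Hsp90b1 (1.61) and Edem2 (1.56) were highest, and Mbtps1 (-1.36), Calr (-0.91, on 65 and 2 UMIs) and Crebrf (-0.89) lowest. Xbp1, which B cells need to become plasma cells, had 56 UMIs in HF-PBS and 11 in the 45 nuclei, or 39.8 and 135 CPM (0.68 to 2.71). In endothelial cells 7 of 27 were higher (24.0%) and 0 lower (10.0%), with Hspa5 at 64.9 and 103 CPM (0.67, 0.07 to 1.32), Calr at 0.67 and Canx at 0.47, against Atf6 at -0.25, Hsp90b1 at -0.23 and Derl1 at -0.19. Mesothelial cells, which had the highest levels of Hspa5, differed little: 2 of 34 were higher (24.0%) and 2 lower (13.1%), and Hspa5 stood at 335 and 382 CPM (0.19, 0.01 to 0.36). The 2 higher genes were Calr, with 83.8 and 186 CPM (1.15, 0.83 to 1.48), and Sec61b (0.77, with an interval that held 0), and Manf followed at 0.54. The 2 lower genes were Wfs1 (-1.67) and Ern1, which went from 279 to 97.0 CPM (-1.52, -1.79 to -1.26), and Derl1 was next at -0.33.

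**Figure D5:**
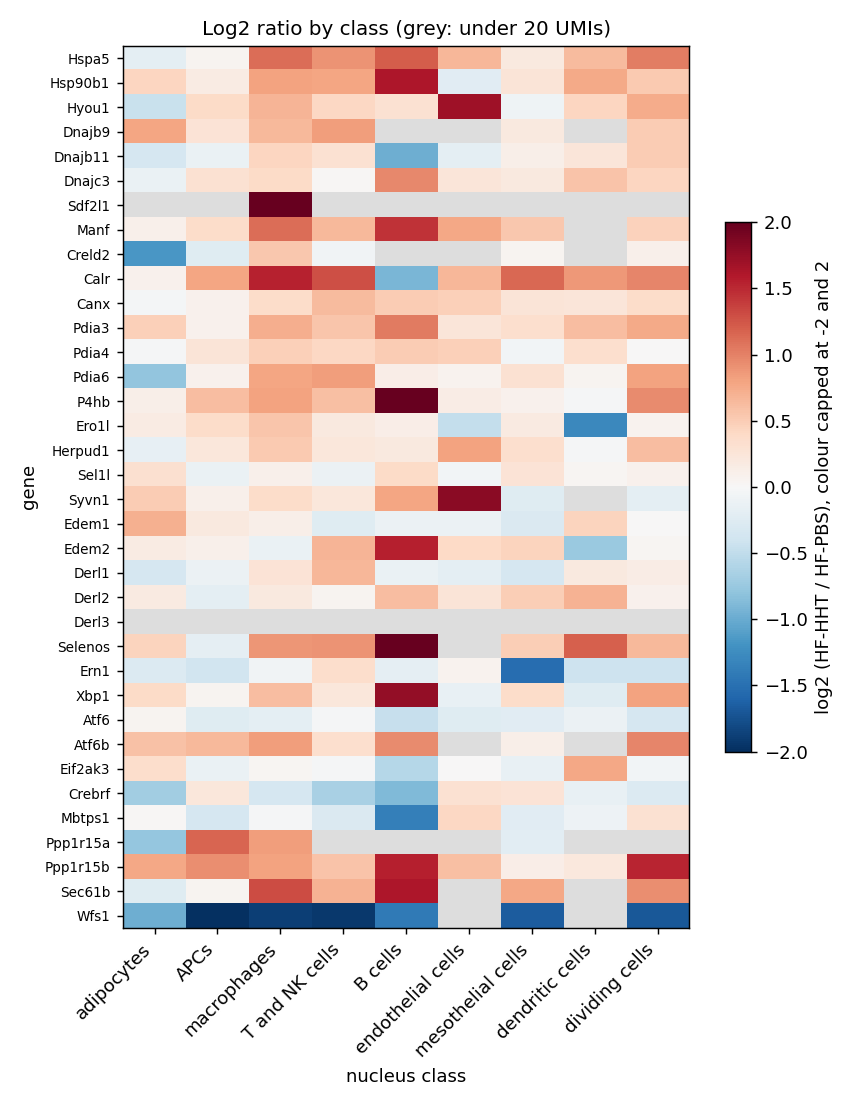
Log2 ratio of CPM between HF-HHT and HF-PBS (HHT over PBS) for all 36 genes (rows) in 9 classes of nuclei (columns), red where higher in HF-HHT and blue where lower, with colour capped at 2 in each direction and grey where a gene had under 20 UMIs. Hspa5 was above 0 in 8 classes and below 0 in adipocytes; Wfs1 was below 0 in each class in which it was measured.

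Other genes of the same compartment, in lists that do not hold the 36, were counted in the 3 main classes. The genes named are the highest and lowest with at least 50 UMIs, and others with fewer UMIs may lie further out. In macrophages, where 26.0% of all measured genes were higher and 8.23% lower, 8 of 28 genes of ER entry and glycosylation were higher and 0 lower (median 0.42), led by the signal peptidase subunit Spcs1 (3.58 and 9.11 CPM, 1.35) and the translocon-associated Ssr4 (1.29), with Sec11c (-0.16) and Uggt2 (-0.08) lowest. Of 26 other folding genes 4 were higher and 2 lower (0.14), with the prolyl isomerases Fkbp2 (1.32) and Ppib (1.09) at one end and Pdia5 (-0.51) and Tmx4 (-0.35) at the other. Of 17 other degradation genes 2 were higher (0.18), Aup1 (0.88) and Rnf139 (0.61), and Ufd1 (-0.22) and Edem3 (-0.05) were lowest. Of 9 other regulators measured, 1 was higher and 2 lower (-0.07), with Tmbim6 at 84.4 and 158 CPM (0.90), Creb3 at 0.57, Creb3l1 at -0.62 and Creb3l2 at 79.1 and 53.9 CPM (-0.55). Chaperones of the cytosol and mitochondria had the highest median of these lists, 0.65, with 9 of 15 higher and 0 lower. Hspa8, the constitutive Hsp70 of the cytosol, went from 43.8 to 161 CPM (1.87, 1.76 to 1.99) and Hsp90aa1 from 22.9 to 67.8 CPM (1.57), while Hsph1 and Bag3 were both at -0.07.

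In adipocytes these lists had medians from 0.12 to 0.24, below the 0.32 of all genes, and 35.3% of all genes were higher and 12.2% lower. There 3 of 28 entry genes were higher and 2 lower, with Sec61g (1.03) and Ganab (0.96) highest and Ssr3 (-0.65) and Spcs3 (-0.53) lowest. Folding genes were 4 higher and 1 lower of 23, between Ppib (1.77) and Fkbp2 (1.27) and Fkbp14 (-0.55) and Ero1lb (-0.46). The ubiquitin-conjugating enzymes of ER degradation, Ube2j1 with 145 and 53.7 CPM (-1.43, -1.64 to -1.22) and Ube2g2 with 77.7 and 21.7 CPM (-1.84, -2.15 to -1.52), were far below the rest of their list, in which Jkamp (0.77) and Yod1 (0.51) were highest, with 2 of 17 higher and 3 lower. Of the 9 regulators measured 1 was higher: Trib3, a pseudokinase induced by Atf4, had 1 UMI in HF-PBS against 64 in HF-HHT (3.58, 1.05 to 8.91), while Ddit3 was at 0.52, Atf4 at -0.11 and Mbtps2 at -0.07. Of 13 chaperones outside the ER 2 were higher and 1 lower, with Hspe1 (1.34) and Hsp90aa1 (0.53) highest and Hsph1 (-0.23) and Hspa8 (-0.18) lowest of those with at least 50 UMIs. The lower gene was Hspb1, on 16 and 29 UMIs (-1.56, -2.49 to -0.58), named after its value was seen.

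In APCs the OASIS-family transcription factors Creb3l1, with 178 and 70.4 CPM (-1.34, -1.57 to -1.12), and Creb3l2, with 570 and 242 CPM (-1.23, -1.36 to -1.11), were the lowest regulators, and Ddit3 (0.82) and Tmbim6 (0.60) the highest, with 2 of 8 higher and 2 lower. Among all genes measured in APCs 23.1% were higher and 7.73% lower. Of 28 entry genes 2 were higher and 1 lower, from Ddost (0.83) and Ssr4 (0.81) to Mogs (-0.64) and Uggt2 (-0.41). Of 26 folding genes 2 were higher and 3 lower, from Fkbp2 (1.06) and Rcn3 (0.59) to Fkbp7 (-1.11) and Pdia5 (-0.95), and of 16 degradation genes 4 were higher and 1 lower, from Aup1 and Os9 (both 0.76) to Ube2g2 (-0.76) and Ube2j1 (-0.44). Of 13 chaperones outside the ER 4 were higher and 0 lower, with Hsp90aa1 at 1.19, Hspa8 at 0.99, Hspd1 at 0.12 and Hspa4 at -0.17.

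Hspa5 is 1 of 5 proteins followed here from among the candidate binding proteins of HHT, and their transcripts had unlike ratios in each class. In macrophages Hspa8 (1.87), Rpl7 (18.3 and 51.3 CPM, 1.49), Hspa5 (1.11) and Pkm (98.9 and 164 CPM, 0.73) were higher, and Txnrd1 had 82.0 and 83.7 CPM (0.03, -0.09 to 0.15). In adipocytes Txnrd1 had 27.7 and 73.1 CPM (1.40, 1.0 to 1.84), while Hspa5 and Hspa8 were at -0.19 and -0.18, Pkm at -0.15 and Rpl7 at 0.37. In APCs Hspa8 (0.99) and Rpl7 (0.67) were higher, and Pkm (0.17), Hspa5 (0.06) and Txnrd1 (-0.08) were below the threshold.

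The ratios of genes with the ER stress response element shown above overlapped those of the others in these 3 classes. The sets were small, and Dnajb11 and Herpud1, which hold the second form, were counted as without it. Genes with no window, Hyou1, Manf and Ppp1r15b among them, were in neither set, so a separation could have been missed. In macrophages, 4 of 8 measured genes with it were higher, with a median of 0.67 and a range of 0.36 to 1.54, and 9 of 21 without it, with a median of 0.48 and a range of -1.89 to 2.12. In adipocytes the medians were -0.09 and 0.14, and in APCs 0.10 and 0.07.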

How the data were processed

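Nuclei of frozen epididymal WAT were processed as 10x libraries, 1 for HF-PBS and 1 for HF-HHT, each of pooled tissue from 3 mice. The values used were raw UMI counts per gene and barcode, deposited by the authors as unfiltered matrices. Per the submitters' processing notes they were made with Cell Ranger 5.0.0 on mm10, and the handling of intronic reads was not given in the sources used here. Nuclei were called against free RNA (barcodes ranked 45000 to 90000) from 3000 expected nuclei, a minimum of 500 UMIs, 10000 simulations and a false discovery rate of 0.01 (Python 3.11.15, numpy 2.4.6, scipy 1.17.1). Likely doublets were removed with Scrublet in scanpy 1.11.5 at 0.8% per 1000 nuclei, and nuclei needed over 400 genes, under 0.5% mitochondrial UMIs, and UMIs and genes under the 95th percentile.

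Clustering used Seurat 5.3.0 (R 4.3.3) at resolution 0.2, with 1.0 for finer clusters, and left the 36 genes and the other lists out of its features. Counts were summed per class and library and divided by the class total. The study's own test over single nuclei was not used, since nuclei of 1 library are not replicates. Each ratio has an exact conditional binomial interval, each level an exact Poisson interval and each share an exact Clopper-Pearson interval, all at 95%. For ratios, a count of 0 in a library was set at a floor of 3 counts. Perivascular nuclei (under 40 per library) and erythroid, duct-like and multiciliated nuclei were not compared. The code was checked on simulated data.

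All 36 genes were accounted for in adipocytes, APCs and macrophages, with values for Hspa5 and for those past 1.5-fold with an interval without 0. In other classes Hspa5 and up to 3 highest and 3 lowest genes with at least 50 UMIs were named, and from each other list up to 2 highest and 2 lowest with at least 50 UMIs. Canx, the sensors and some genes below the threshold were named beyond this rule. The members and lists were chosen with earlier results of these data known. Gene coordinates are on GRCm38, and promoter windows are from RefSeq on GRCm38.p6. Alternatives were TMM factors (edgeR 4.0.16), median-of-ratios factors (DESeq2 1.42.0), other barcode filters, minimum counts and thresholds, free RNA subtracted, single clusters, and thinning to 2000 UMIs.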

Additional observations from a re-analysis of the deposited data

Results flagged for a closer look

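Pdia6, a protein disulfide isomerase, had a log2 ratio of HF-HHT over HF-PBS of 0.83 (0.22 to 1.44) in T and NK cells, from 30 and 53.3 CPM, and of -0.79 (-1.20 to -0.37) in adipocytes, from 35.1 and 20.2 CPM. It is listed here because both ratios passed 1.5-fold in opposite directions with intervals that left out 0. With 1 library per condition, the difference between the classes was not tested.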

How the results depend on the processing

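Of 151 values recomputed under the alternatives, 110 stayed within their counting error (for counts of genes, within 1.5 times; for medians, the typical error of a gene) and 41 moved further. Of single genes, Hspa5 alone was recomputed, and its ratio in macrophages, the one past 1.5-fold, kept its sign, whereas in adipocytes (-0.78 to 0.24) and APCs (-0.30 to 0.19) it took both signs, as did the module's medians there (-0.23 to 0.16 and -0.49 to 0.17). No paired analysis was possible because each condition was 1 library and the labels carry no replicate numbers. In macrophages the ratio of Hspa5 lay between 0.60 and 1.51 throughout: 1.22 without upper limits on nuclei, 0.96 with TMM and 0.95 with median-of-ratios factors, 1.51, 0.86, 0.60 and 1.01 in the clusters with Mrc1, Dpep2, Ccr2 and Lyve1, and 1.0 after thinning. The median of the module there was 0.38 with median-of-ratios factors, 0.32 in the Ccr2 cluster and 0.16 in the Lyve1 cluster, where 6 genes were higher. A 2-fold threshold left 5 higher, and 2 were lower with no minimum count and 3 in the Ccr2 cluster. In adipocytes 1 gene was higher and 8 lower with every barcode of at least 500 UMIs, where Hspa5 was at -0.78. There 6 were higher and 3 lower without upper limits, 0 and 8 with either scaling, and 0 and 1 at 2-fold. The larger adipocyte cluster had 7 higher and the Adrb3 cluster 10 lower, and Hspa5 was at 0.24 after thinning. In APCs 3 were higher with either scaling or a minimum of 50 counts, 2 with free RNA subtracted (Hspa5 at -0.24), and 1 at 2-fold. The Pi16 cluster had 3 higher and 4 lower, and the C7 cluster 0 higher and 8 lower, with a median of -0.49 and Hspa5 at -0.30. The cause of these differences was not tested. Of the 3 main classes, the fewest UMIs of Hspa5, 97, were counted in the 146 adipocytes of HF-PBS.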
